A study of Homo sapiens with 6 samples.

Results

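Keratins and keratin-associated proteins were examined in xenografts of CRL-5889, a human cell line established from a lung squamous carcinoma, with 1 array for each of 6 tumors. Members were all genes whose symbol in the platform annotation begins with KRT or KRTAP followed by a digit, and 135 of the 18132 genes with a probe set of their own met this rule. They comprised 47 keratin genes, 82 keratin-associated protein genes, 5 keratin pseudogenes and the antisense RNA KRT10-AS1. The implanted cells carried either the TRA2B-DNAH5 fusion (3 fusion tumors) or the vector alone (3 vector tumors), and all tumors grew in nude mice and were taken at 4 weeks. The labels call the tumors biological replicates, but do not say whether a transfected population was 1 clone, which mouse bore which tumor, or how the construct was built. Nude mice lack T cells and keep fibroblasts, vessels, macrophages and other host cells. The arrays carry human probe sets, and mouse RNA was not told apart from tumor RNA.

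Keratins are the intermediate filament proteins of epithelia. Each filament pairs a type I with a type II keratin, and the pair marks the cell: KRT5 with KRT14 in the basal layer of squamous epithelia, KRT8 with KRT18 in simple epithelia, and a separate set in the hair shaft. Keratin-associated proteins are small proteins, many of them rich in cysteine, that cross-link hair keratin filaments in the shaft, and their genes lie in tandem clusters of close copies. Squamous lung carcinomas usually make the basal keratins, whereas lung adenocarcinomas usually make KRT7.

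A single member passed the threshold for a difference between the groups, which does not show that the other members were unchanged. KRTAP2-3, a cysteine-rich keratin-associated protein gene, rose in fusion tumors, and its change was the largest of all 13694 genes tested. The other 66 tested members did not pass, and neither did any of the 68 members too dim to be tested. The basal keratins KRT5 and KRT14 were dim in both groups, KRT10 and KRT18 were read well above the filter in every tumor, and the 95% interval of every tested member but KRTAP2-3 lay inside a 2-fold change either way.

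The promoters of KRTAP2-3 and its 3 KRTAP2 neighbours are shown first, because the probe set that changed is annotated to KRTAP2-3. Its signal cannot be assigned to that gene alone, and KRTAP2-2 and KRTAP2-4 were below the filter. A contrast between these close copies is therefore not established. The sequences are 120 bases each, read 5′ to 3′ on the minus strand from RefSeq promoters of GRCh38.p14, and all lie upstream of the annotated start. Capitals mark TATATAAA, on which the sequences are aligned.
KRTAP2-1, chr17:41047334-41047453: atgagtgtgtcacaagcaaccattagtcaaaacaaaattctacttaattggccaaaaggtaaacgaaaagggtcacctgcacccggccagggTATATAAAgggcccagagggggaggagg
KRTAP2-2, chr17:41055278-41055397: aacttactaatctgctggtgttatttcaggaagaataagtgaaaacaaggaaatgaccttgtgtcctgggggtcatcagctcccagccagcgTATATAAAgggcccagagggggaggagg
KRTAP2-3, chr17:41060117-41060236: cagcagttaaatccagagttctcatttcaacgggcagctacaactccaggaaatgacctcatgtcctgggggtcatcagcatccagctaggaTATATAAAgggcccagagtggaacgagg
KRTAP2-4, chr17:41065912-41066031: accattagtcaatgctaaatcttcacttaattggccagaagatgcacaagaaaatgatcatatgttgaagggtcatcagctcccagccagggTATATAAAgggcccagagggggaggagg
Over the last 48 bases, which hold the capitals, KRTAP2-3 shared 39 bases with KRTAP2-1, 40 with KRTAP2-2 and 41 with KRTAP2-4. Over the first 72 bases it shared 20, 36 and 22, the highest count being that of KRTAP2-2. All these counts compare letters at the same place without gaps. An inserted or lost base lowers such a count, so it does not rank the copies by likeness. Counted from the first of the last 48 bases, KRTAP2-3 differed from all 3 others by T10C, T16C, A20G, T39G, A42G and C44G, with the KRTAP2-3 base given first. The promoters of KRTAP2-3 and of the other 3 hold no match to the AP-1 motif TGANTCA on either strand in the window of 300 bases, a motif found in 7.76% of the 27305 promoters of that length. TATATAAA was found in 1.16% of them. Of the 135 members, 102 had a promoter in the table. The shorter TATAAA, which TATATAAA contains, was present on either strand in 54 of 69 keratin-associated protein promoters (78.3%) and in 18 of 32 keratin promoters (56.2%), against 12% of all promoters. These matches describe the letters only.

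KRTAP2-3 had 1 probe set. In the fusion group, taking tumors 1, 2 and 3 in turn as throughout, its log2 value was 8.92, 9.69 and 9.11, and the vector group read 5.91, 6.63 and 6.39. Every fusion tumor was above every vector tumor, with a gap of more than 2 log2 units between the groups. The group means were 9.24 ± 0.40 and 6.31 ± 0.37 (SD over n = 3 in each group), a 7.60-fold difference (log2 fold change 2.93, SE 0.23, 95% confidence interval 2.40 to 3.45). It passed in limma with an adjusted p = 0.00629 (Benjamini-Hochberg over 13694 genes), and the exact 2-sided permutation test gave p = 0.1, the smallest value that 3 against 3 tumors allow. The next largest change among tested genes was that of MMP10, a stromelysin, at 2.18. KRTAP2-3 is thus the 1 of 67 tested members that was higher past the threshold (1.49%), against 0.0584% of all tested genes. Past it on the lower side were 0 members, against 0.0146% of all tested genes. Without fusion tumor 1 the call was lost (log2 fold change 3.08, adjusted p = 0.0757).

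The probe set is of the _s_at type, which several near-identical transcripts can share, so its signal cannot be assigned to KRTAP2-3 alone. The other genes of the KRTAP2 family each had a probe set of their own. KRTAP2-1, at one end of the 4, was at 5.44, 5.17 and 5.80 in fusion and 5.57, 5.40 and 5.32 in vector tumors, with overlapping groups and a log2 fold change of 0.04 (95% interval -0.33 to 0.40). KRTAP2-2, also read by an _s_at probe set, was dim, at 3.99, 3.91 and 3.98 against 3.79, 3.79 and 3.78, so its groups did not overlap, but the difference was 0.17. KRTAP2-4, also dim, was at 3.43, 3.54 and 3.24 against 3.61, 3.36 and 3.46 (-0.07). Next along chromosome 17 lie the KRTAP1 genes. KRTAP1-5, another cysteine-rich gene, was at 4.40, 4.49 and 4.78 in fusion and 3.93, 4.21 and 4.42 in vector tumors. Its groups overlapped by 1 tumor on each side, and its difference of 0.37 had an adjusted p = 0.868 in the limma fit without a filter, since the gene was below it. KRTAP1-1 (-0.07) and KRTAP1-3 (0.07) were near 0, as was KRTAP3-1 (0.03) beyond them and KRTAP4-8 (-0.02) on the other side. No neighbour with a probe set of its own had a difference near that of KRTAP2-3.

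**Figure D1:**
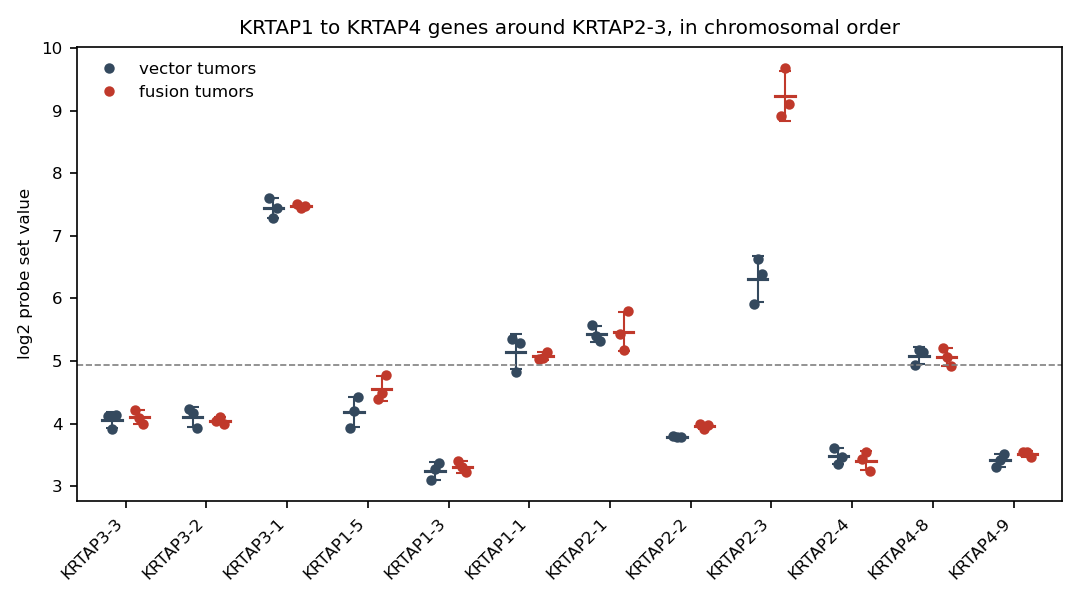
Log2 probe set values of 12 keratin-associated protein genes in their order along chromosome 17, for vector (dark) and fusion (red) tumors; points are tumors, bars are means with SD (n = 3), and the dashed line is the filter level of 4.94. KRTAP2-3 is the only gene with widely separated groups (9.24 against 6.31), while its KRTAP2 and KRTAP1 neighbours lie within 0.4 log2 units between groups. Levels of different probe sets cannot be compared with each other.

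Of the 135 members, 67 had a mean above a filter level of 4.94, the 30th percentile over the platform, and were tested, and 68 (50.4%) were below it, against 24.5% of all genes. The tested members had a median log2 fold change of -0.0052, beside 0.0020 over all tested genes, with 32 above 0 and 35 below. At an unadjusted limma p below 0.05 there were 2 of 67 (2.99%), beside 5.89% of all tested genes, and groups that did not overlap were found for the same 2 members, KRTAP2-3 and KRTAP24-1, beside 11.7%. Of the 66 members that did not pass, all 66 had a 95% interval inside 2-fold and 63 inside 1.5-fold, intervals that are not adjusted for their number. Over all tested genes these shares were 98.5% and 89.6%.

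**Figure D2:**
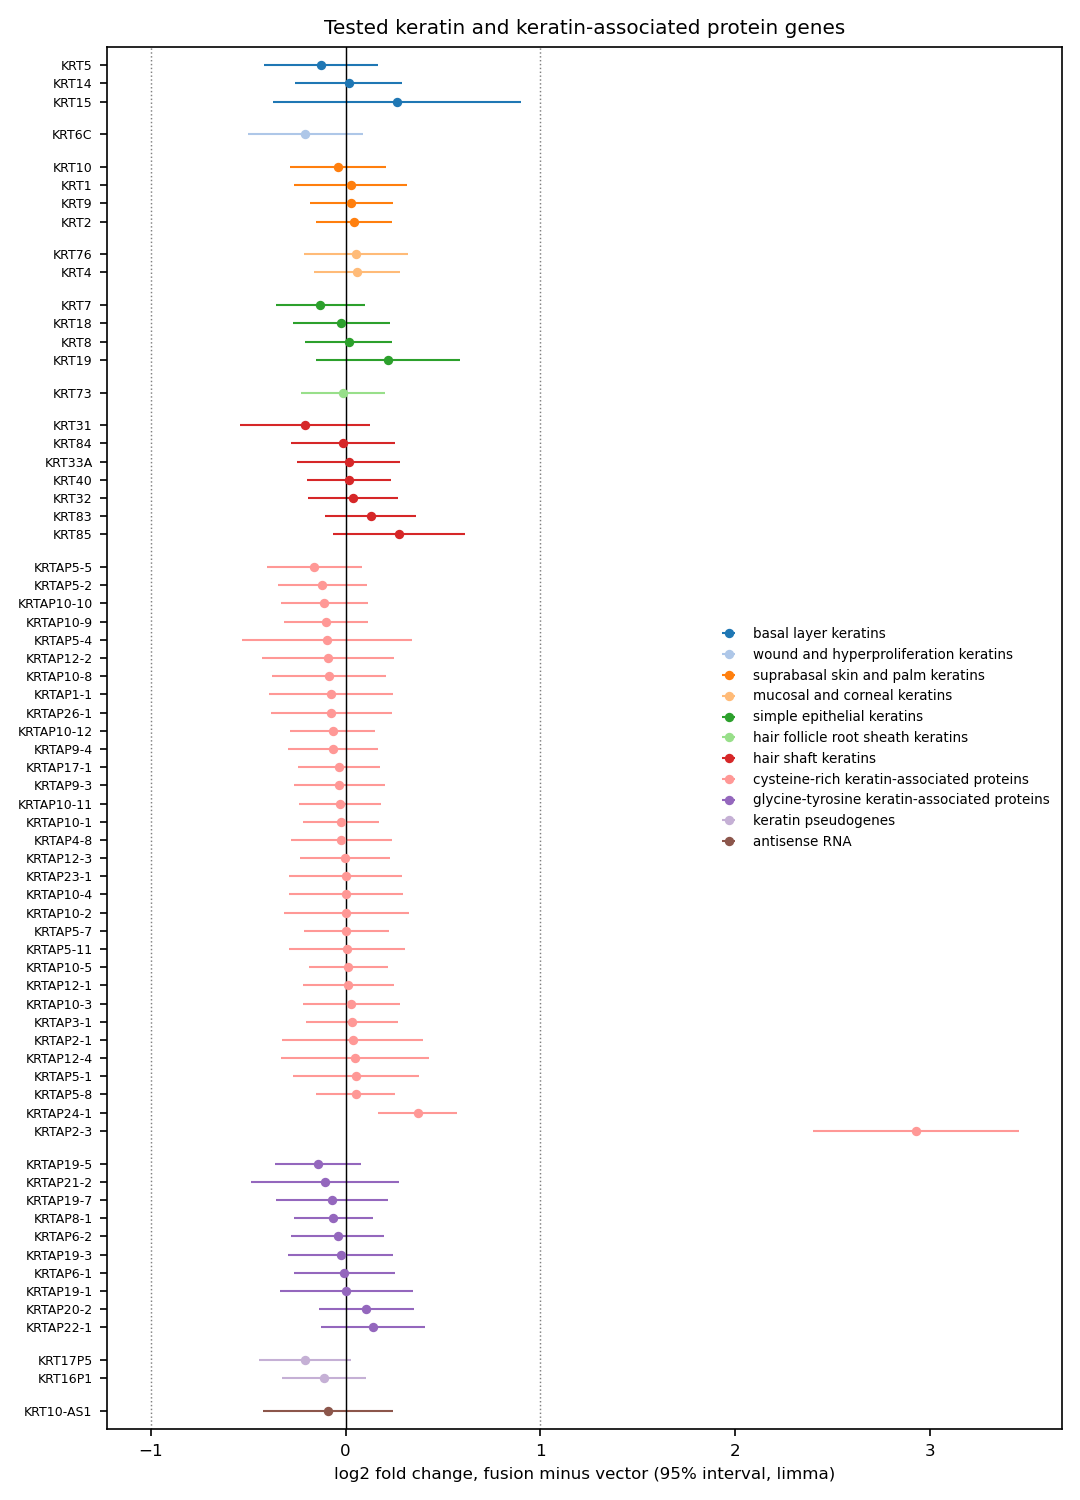
Log2 fold change (fusion minus vector) of the 67 tested members with 95% intervals from limma, coloured by role and ordered by size within it; dotted lines mark 2-fold. KRTAP2-3 stands at 2.93, KRTAP24-1 at 0.37, and every other interval includes 0.

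The basal layer keratins, which squamous lung carcinomas usually make, were all tested and 0 of 3 passed in limma (0 at an unadjusted p below 0.05). KRT5, the type II partner, was at 4.90, 5.16 and 5.13 in fusion and 5.05, 5.09 and 5.41 in vector tumors, close to the filter level in every tumor (log2 fold change -0.13, 95% interval -0.42 to 0.16). A further probe set of KRT5 was dimmer still and gave 0.15. KRT14, its type I partner, was at 5.62, 5.83 and 5.69 against 5.90, 5.51 and 5.68 (0.02, 95% interval -0.26 to 0.29). KRT15, another basal keratin that also marks hair follicle stem cells, was at 6.86, 5.59 and 6.01 in fusion and 5.94, 5.73 and 6.01 in vector tumors. Fusion tumor 1 alone was high, and KRT15 had the widest interval of the tested members that did not pass (-0.37 to 0.90). KRT6C, a keratin of wounded and hyperproliferative epidermis, was at 7.54, 7.26 and 7.49 against 7.83, 7.43 and 7.66, with overlapping groups (-0.21, adjusted p = 0.956 in limma).

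The labelled squamous type was checked against 13 markers of squamous lung carcinoma, of which 10 had a probe set of their own and 6 were above the filter. TP63, KRT6A and KRT6B had none of their own in the annotation used, so these markers were not checked. The desmosomal cadherin DSG3, TRIM29, CLCA2 and SERPINB13 were below it. The 10 markers summed to log2 levels of 9.58 to 9.75 in fusion and 9.93 to 10.51 in vector tumors. That separation is carried by 1 gene: without SOX2 the other 9 summed to 8.44 to 8.57 and 8.29 to 8.52, which overlapped. Of the 6 tested markers 3 were above 0 and 3 below, with a median of -0.02, and 0 passed in limma (1 lower at an unadjusted p below 0.05). SOX2 was the 1 of 6 whose groups did not overlap, beside 11.7% of all tested genes. SOX2, a transcription factor often amplified in squamous lung tumors, read 8.70, 8.92 and 8.85 in fusion against 9.24, 9.62 and 10.10 in vector tumors (-0.83, SE 0.19, adjusted p = 0.369 in limma). Of 8 adenocarcinoma markers, 0 of 6 tested passed (0 at an unadjusted p below 0.05), and KRT7 was at 4.92, 5.01 and 5.10 in fusion and 5.10, 5.05 and 5.27 in vector tumors, near the filter level.

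Simple epithelial keratins included a probe set with strong signal. KRT18, the type I keratin of simple epithelia, was at 8.54, 8.38 and 8.73 in fusion and 8.53, 8.60 and 8.58 in vector tumors, and the difference was -0.02 on this probe set and -0.04 on the other. KRT8, its type II partner, had 8 probe sets, of which 1 was above the filter, and their log2 fold changes ran from -0.12 to 0.15. The brightest was at 5.19, 5.28 and 5.41 against 5.18, 5.32 and 5.34. All KRT8 and KRT18 probe sets are of the _x_at type, which can also bind other sequences, and the many processed copies of both genes make their levels uncertain. KRT19, a keratin without the usual tail domain, was at 5.26, 5.42 and 5.04 against 4.87, 4.84 and 5.36, where vector tumor 3 was as high as the fusion tumors (0.22, 95% interval -0.15 to 0.59). KRT20 and KRT23 were below the filter. None of the 4 tested genes passed in limma (0 at an unadjusted p below 0.05).

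Among the keratins of upper epidermal layers and of palms and soles, 4 of 9 were tested and 0 passed in limma (0 at an unadjusted p below 0.05). KRT10, the main type I keratin of the suprabasal epidermis, was at 9.46, 9.80 and 9.67 in fusion and 9.72, 9.67 and 9.66 in vector tumors (-0.04, 95% interval -0.28 to 0.21). Its type II partner KRT1 was near the filter level, at 5.19, 5.19 and 5.20 against 4.95, 5.12 and 5.43 (0.03). KRT2 and KRT9 had log2 fold changes of 0.04 and 0.03. The mucosal keratins KRT4 and KRT76 were at 0.06 and 0.05, while KRT13, the partner of KRT4 in mucosa, and the corneal keratins KRT3 and KRT12 were below the filter. Of the hair follicle root sheath keratins, 8 of 9 were below it and KRT73 was at -0.01.

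Hair shaft keratins are the filaments that keratin-associated proteins bind. Of 13 with a probe set of their own, 7 were tested and 0 passed in limma (0 at an unadjusted p below 0.05), with a median log2 fold change of 0.017. KRT85, a type II hair keratin, was at 5.68, 5.33 and 5.14 in fusion and 5.03, 5.02 and 5.27 in vector tumors (0.28, 95% interval -0.06 to 0.61), and its 3 probe sets gave 0.03 to 0.28. KRT31, a type I hair keratin, was high in vector tumor 1 alone, at 5.09, 5.25 and 5.16 against 5.71, 5.16 and 5.25 (-0.21). KRT83, a type II hair keratin, was at 0.13. KRT36, a hair keratin that was just under the filter, was at 5.38, 4.91 and 5.08 in fusion and 4.48, 4.71 and 4.72 in vector tumors. All 3 fusion values were above all 3 vector values, with a difference of 0.49 (SE 0.13, adjusted p = 0.568 in the limma fit without a filter). KRT33A, KRT32, KRT40 and KRT84 lay between -0.01 and 0.04.

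**Figure D3:**
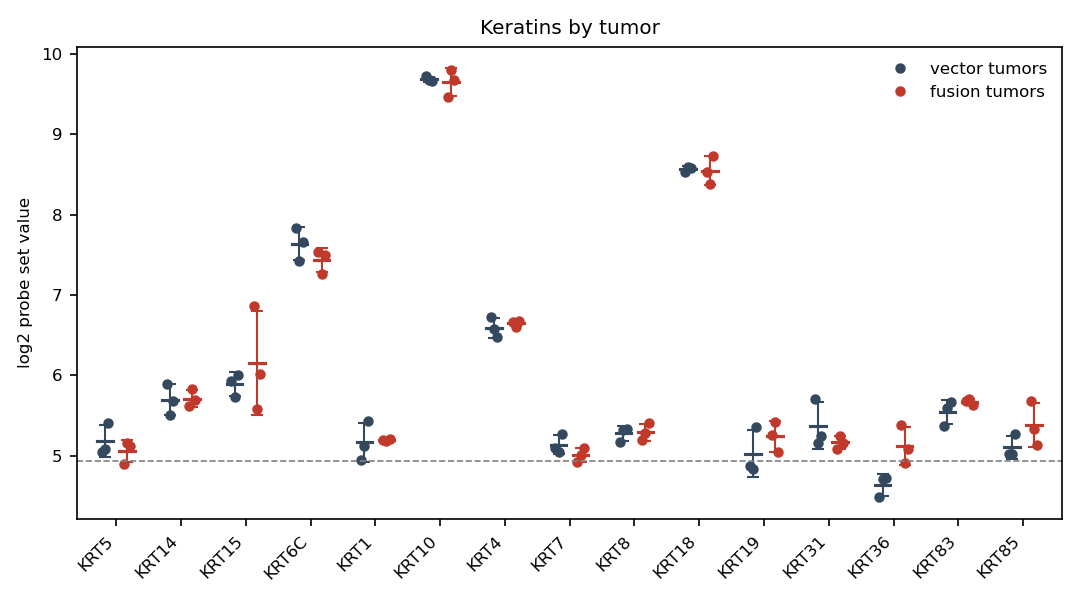
Log2 probe set values of 15 keratins in vector (dark) and fusion (red) tumors; points are tumors, bars are means with SD (n = 3), and the dashed line is the filter level of 4.94. KRT10 and KRT18 lie well above the line in all 6 tumors, KRT5, KRT7 and KRT8 near it, and the groups overlap for every gene but KRT36. Levels of different probe sets cannot be compared with each other.

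Of 62 cysteine-rich keratin-associated protein genes, 32 were tested, with 1 higher past the threshold (KRTAP2-3), 0 lower, and a median log2 fold change of -0.011. KRTAP24-1, from the chromosome 21 cluster, was at 5.21, 5.20 and 5.08 in fusion and 4.79, 4.85 and 4.75 in vector tumors, so its groups did not overlap (0.37, SE 0.088, adjusted p = 0.376 in limma). Its vector mean was below the filter level, and its other probe set, dimmer, gave -0.17. The remaining 30 ran from -0.16 (KRTAP5-5) to 0.05 (KRTAP5-8). The 20 genes of the glycine and tyrosine rich families, whose products fill the hair cortex early, had 10 tested members, 0 past the threshold in limma (0 at an unadjusted p below 0.05) and log2 fold changes of -0.14 (KRTAP19-5) to 0.14 (KRTAP22-1). KRTAP6-1 was at 10.78, 10.70 and 10.84 in fusion and 10.64, 10.71 and 10.99 in vector tumors (-0.0052) on an _s_at probe set. Its other probe set was far dimmer, at 5.46, 5.14 and 5.23 against 5.22, 5.19 and 5.68 (-0.09), so the level of this gene is uncertain.

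The clustered keratin-associated protein genes varied together among the vector tumors. Vector tumor 2 had the lowest of the 3 vector values in 13 of 14 tested KRTAP10 and KRTAP12 genes, neighbours on chromosome 21, and in 38 of 67 tested members (56.7%), beside 26.8% of all tested genes. In these 14 genes the median deviation from the mean of the 6 tumors was -0.13 in vector tumor 2, 0.097 in vector tumor 1 and 0.11 in vector tumor 3, and between -0.056 and 0.019 in fusion tumors. Over all tested genes the medians lay between -0.0018 and 0.0071. These genes are close copies, and 34 of the 67 tested members were read by probe sets of the _s_at or _x_at type, so their values are not independent of each other.

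**Figure D4:**
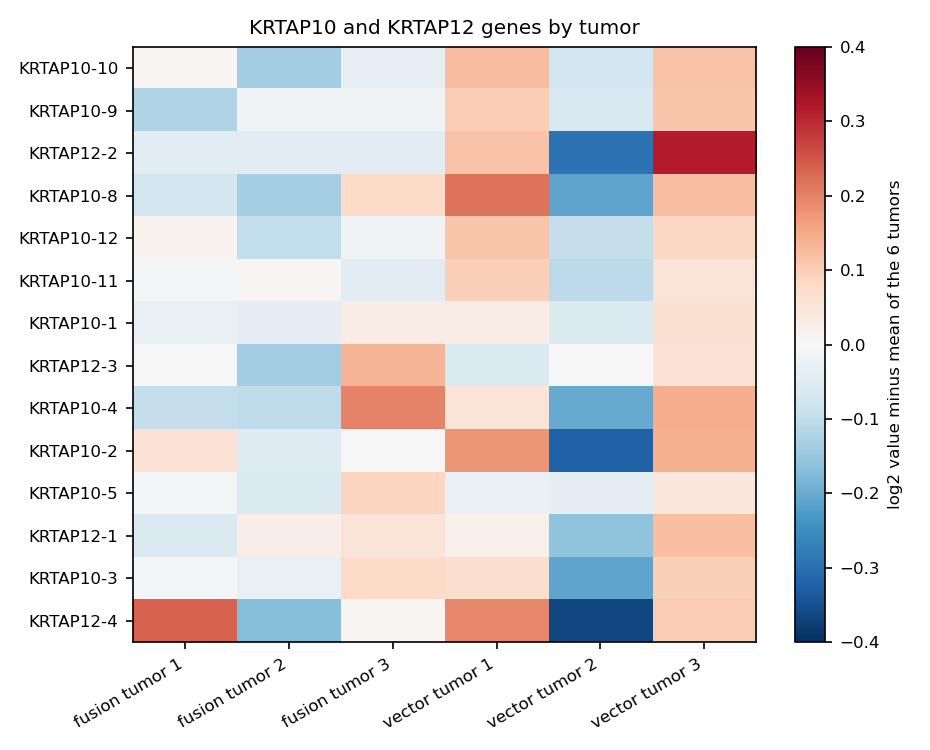
Deviation of each tumor from the mean of the 6 tumors (log2 units, colour) for the 14 tested KRTAP10 and KRTAP12 genes, ordered by fold change. The column of vector tumor 2 is low and that of vector tumor 3 high in most rows, with medians of -0.13 and 0.11.

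Members below the filter gave log2 differences of -0.32 (KRTAP7-1) to 0.49 (KRT36), 36 of 68 above 0, and 0 passed in the limma fit without a filter (3 at an unadjusted p below 0.05). Groups did not overlap for 7 of the 68 (10.3%), 6 higher and 1 lower, beside 8.95% of all genes below the filter. A further 10 probe sets named a member together with another gene. The largest differences among them were -0.33 for the probe set of KRT16 and its pseudogenes, which was below the filter, and 0.29 for that of KRTAP5-8 and KRTAP5-3. When these probe sets were kept beside the genes, the lowest adjusted p among the 6 above the filter was 0.841 in limma. Another 6 keratins of the roles listed were not analysed here. The 2 probe sets of KRT10-AS1 disagreed: the brighter gave -0.09 with overlapping groups, and the dimmer 0.28, at 5.94, 5.96 and 5.97 against 5.73, 5.64 and 5.66, without overlap. That probe set was seen after the fact and was not tested. The 2 tested pseudogenes, KRT17P5 and KRT16P1, close copies of keratin genes, were at -0.21 and -0.11.

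Genes that hold keratin filaments to the cell surface were taken as a list of 25, of which 17 were tested and 0 passed in limma (1 higher and 2 lower at an unadjusted p below 0.05). Of the 17, 13 were below 0, with a median of -0.11 beside 0.0020 over all tested genes. Groups did not overlap for 4 of the 17 (23.5%), beside 11.7% of all tested genes. DSP, the desmoplakin that ties keratin to desmosomes, was at 9.94, 10.37 and 9.97 in fusion and 10.39, 10.67 and 10.70 in vector tumors. Its highest fusion value lay just under its lowest vector value, with a difference of -0.49 (SE 0.14, adjusted p = 0.526). The plakophilin PKP2, which clusters desmoplakin, was at -0.49 (SE 0.16, adjusted p = 0.632), and plakoglobin (JUP) at -0.23. In the other direction, ITGA6, a chain of the laminin receptor to which hemidesmosomes tie keratin, was at 12.04, 12.05 and 11.98 in fusion and 10.95, 11.43 and 11.30 in vector tumors (0.80, SE 0.13, adjusted p = 0.127 in limma), without overlap. Its partner chain ITGB4 was at -0.02.

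Other intermediate filament genes were compared as a list of 16. Of 12 tested, 0 passed in limma (2 higher and 1 lower at an unadjusted p below 0.05), while groups did not overlap for 7 (58.3%, beside 11.7% of all tested genes), and the median was 0.095. The summed log2 level of the list was 14.48 to 14.54 in fusion and 14.33 to 14.40 in vector tumors. This sum rests mainly on vimentin, and was not taken without it. Vimentin (VIM), the filament of mesenchymal cells, was higher in all 3 fusion tumors by 0.12 (SE 0.084, adjusted p = 0.962), and the neuronal filament INA by 0.21 (SE 0.098, adjusted p = 0.883). SYNM, which links filaments to focal adhesions, was at 9.94, 9.32 and 9.62 against 9.21, 9.29 and 8.92 (0.49, adjusted p = 0.683). The heavy neurofilament chain NEFH was at 8.46, 8.21 and 8.11 against 8.61, 8.74 and 8.64 (-0.40, adjusted p = 0.489).

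Cornified envelope genes, the products of late squamous differentiation, had 14 of 29 tested and 0 past the threshold in limma (0 at an unadjusted p below 0.05), with a median of -0.034. Involucrin (IVL), filaggrin (FLG) and loricrin (LORICRIN) were below the filter. Regulators and partners of hair keratins had 6 of 15 tested and 0 past it (1 at an unadjusted p below 0.05). HOXC13, a transcription factor that drives hair keratin genes, was at 6.70, 6.61 and 6.54 in fusion and 6.90, 6.64 and 6.57 in vector tumors (-0.08), and MSX2, a homeobox factor of the hair matrix, was at 0.26 (SE 0.098, adjusted p = 0.733), with groups that did not overlap. Of 20 keratinocyte transcription factors, 14 were tested and 0 passed in limma (2 higher and 1 lower at an unadjusted p below 0.05). Groups did not overlap for 3 of the 14, beside 11.7% of all tested genes: TFAP2A and SOX9 (0.25) were higher in fusion tumors, and SOX2 (-0.83) lower. TFAP2A, which binds keratin promoters, was at 9.86, 9.63 and 9.73 against 8.79, 9.18 and 9.20 (0.68, SE 0.13, adjusted p = 0.245 in limma), with every fusion tumor above every vector tumor.

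The rise of KRTAP2-3 was read in bulk tissue, where more cells of a type and more RNA per cell cannot be told apart. Of 9 tested fibroblast markers 7 were above 0, with a median of 0.24, and 0 passed in limma (4 higher and 1 lower at an unadjusted p below 0.05). Groups did not overlap for 5 of the 9: FAP (0.91), COL1A1 (0.65), THY1 (0.36) and COL1A2 (0.24) were higher in every fusion tumor, and FBN1 (-0.50) lower. Over all tested genes, groups did not overlap for 11.7%, and 5.89% had an unadjusted limma p below 0.05. The summed log2 levels, 13.37 to 13.48 in fusion and 13.14 to 13.69 in vector tumors, overlapped but rest mainly on PDGFRA (-0.15). Without PDGFRA they were 11.41 to 11.50 and 11.00 to 11.36, which did not overlap. That sum in turn rests mainly on THY1, at 10.91, 10.84 and 11.03 against 10.36, 10.71 and 10.63, and was not taken without it. The 2 fibroblast markers below the filter, DCN (0.08) and LUM (0.17), had overlapping groups. These sums do not show whether fibroblasts or tumor cells made the RNA. Macrophage and leukocyte markers summed to 9.29 to 9.52 and 8.96 to 8.99, a separation carried by CD68 (0.80): without it the other 7 summed to 8.16 to 8.27 and 8.18 to 8.23, which overlapped. All 5 tested markers were above 0, and 0 passed in limma (1 at an unadjusted p below 0.05). Groups did not overlap for 2 of them, CD68 and CSF1R. CSF1R was at 0.17, but changed sign in 1 other setting. CD3E, CD79A and ITGAM were between 0.02 and 0.03, and the 3 markers below the filter, PTPRC (-0.02), CD14 (-0.19) and LYZ (-0.16), were below 0. Adipocyte markers summed to 8.55 to 8.63 and 8.69 to 8.84, which did not overlap. With 4 of 5 tested genes below 0, the median was -0.26, and 0 passed in limma (3 lower at an unadjusted p below 0.05). PPARG (-0.38) and CIDEC (-0.26) were the 2 of 5 whose groups did not overlap, and CIDEC changed sign in 1 other setting. Endothelial (8.30 to 8.35 and 8.21 to 8.38), erythroid (7.51 to 7.83 and 7.50 to 8.03) and skeletal muscle markers (8.55 to 9.65 and 8.85 to 9.78) overlapped between groups. The lowest value of any probe set was 2.68 to 2.81 across the arrays, so presence or absence of a cell type cannot be read from a value of 0. The part of other cell types in the result was not tested. Array medians were 6.27 to 6.39, and vector tumor 1 stood apart on the first principal component (45.1% of variance). Without it, the difference for KRTAP2-3 was 2.73 (SE 0.21, adjusted p = 0.0073 in limma).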

How the data were processed

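RNA of 6 xenograft tumors was hybridised to 1 Affymetrix array per tumor. The authors deposited log2 probe set values, a scale read from the values; background correction, normalization and summarisation are not given in the sources consulted. Of 49293 probe sets, 44988 named 1 gene in the platform annotation, 1832 several and 2473 were unnamed here. A gene was represented by its brightest probe set on average (18132 genes), and 13694 genes with a mean of at least 4.94, the 30th percentile over the platform, were tested. The comparison of the groups used lmFit and eBayes of limma 3.58.1 (R 4.3.3), 2-sided, with adjusted p-values (Benjamini-Hochberg, 13694 genes) called at 0.05. SDs are over 3 tumors, and no depth applies: the number of arrays limits precision. P-values measure the spread between these tumors.

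The members and the 13 lists were chosen with earlier results of these data known. Any member could be named. Full statistics went to members past the threshold and, in each role, to up to 3 tested members with the smallest p and up to 3 with the highest mean; of each list, up to 4 genes with the smallest p were eligible. KRTAP2-3's neighbours, KRT36, dim or overlapping members and further list genes (VIM, COL1A2, PDGFRA, DCN, LUM, ITGAM, ITGB4, HOXC13, IVL, FLG, LORICRIN, DSG3, TRIM29, CLCA2, SERPINB13, PTPRC, CD14, LYZ) were named after their values were seen. Summed list levels are log2 of the sum of linear values. Only for the squamous, fibroblast, and macrophage and leukocyte lists were they also taken without the gene of highest mean, a choice made after seeing the data. Promoters came from RefSeq (GRCh38.p14), matched by symbol. The model was tested on simulated data. Other settings are given in the closing section. Figures used Python 3.11.15 and matplotlib 3.10.9.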

Additional observations from a re-analysis of the deposited data

How the results depend on the processing

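KRTAP2-3 was the 1 member past the threshold under all but 2 of the settings tried. With probe sets of the _s_at and _x_at types left out, 0 members passed (1 at an unadjusted limma p below 0.05), because KRTAP2-3 has no other probe set. Leaving out each tumor in turn gave 0 to 1 members, with 0 without fusion tumor 1 (1 at an unadjusted p below 0.05). Its log2 fold change stayed between 2.70 and 3.09, and its limma adjusted p ran from 0.000324 to 0.0757. Of the 37 members recomputed, no called direction turned, while 19 that were not called changed sign in at least 1 setting. The count over all genes was 10, and 8 to 13 in the settings not named next. It was 1 with the filter at the 50th percentile, 6 with the most variable probe set, 16 with the mean of probe sets, 140 with array weights, 2 at a threshold of 0.01, 37 without vector tumor 1, 0 without fusion tumor 1 (667 at an unadjusted p below 0.05) and 3 without each of the other 4 tumors. Of the list genes recomputed, ITGA6 and SOX2 passed without vector tumor 1 and with array weights, and DSP, NEFH, TFAP2A and CD68 with array weights. The fibroblast markers FAP and FBN1 also passed in 1 setting each (lowest limma adjusted p = 0.0226 and 0.0235).

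Tumors with the same number deviated together only weakly (r across genes 0.097, 0.17 and 0.051), and not every pair was over 0.1, so the numbers were not taken as pairs, although each tumor correlated best with its own number. With the replicate block KRTAP2-3 kept its call (adjusted p = 0.000532), 1 member passed, and 8 genes passed in all. Many members lie near the background level of the arrays, where a change in RNA can go unseen and a fold is understated.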
